A study of Mus musculus with 20 samples.

Results

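Genes of the NRF2 antioxidant response and the metallothioneins were followed in the lungs of mice that had received carbon black during pregnancy. The members were 10 genes chosen by symbol (Slc7a11, Gclc, Gclm, Hmox1, Nqo1, Txnrd1, Srxn1, Gsr, Mt1 and Mt2), found by the gene name given for each probe in the deposited spot tables. They were measured by 18 probes, and all 10 were among the 19914 genes that had a probe bright enough to be tested. The study used 20 female C57BL/6BomTac mice, young adult, nulliparous and time-mated, in 4 groups of 5 dams. Control dams were given Milli Q water, the vehicle, and the other groups the carbon black Printex 90, a powder of fine carbon particles. The trachea was instilled at gestational day 7, 10, 15 and then 18, at 2.75 µg each in the Low group, 13.5 µg in the Medium group and 67 µg in the High group, for totals of 11, 54 and 268 µg per animal. All dams, Control included, thus went through 4 instillations, pregnancy and lactation, and their lungs were taken after weaning, 26 or 27 days after exposure. Each dam's lung RNA was labelled with Cy5 and hybridised to its own Agilent array against a common universal reference RNA in Cy3, and every value below is the log2 ratio of lung over reference (M) for that gene's probe. A value below 0 means that the reference was brighter, so M compares dams for the same gene and does not rank the genes by abundance.

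NRF2 (encoded by Nfe2l2) is a transcription factor that is held in the cytoplasm and marked for degradation by KEAP1. Electrophiles and oxidants modify KEAP1, NRF2 then accumulates, pairs with small MAF proteins and binds antioxidant response elements in front of its target genes. The members cover the arms of that response: cystine uptake and glutathione synthesis (Slc7a11, Gclc, Gclm), recycling of glutathione, thioredoxin and peroxiredoxins (Gsr, Txnrd1, Srxn1), and haem and quinone metabolism (Hmox1, Nqo1). Mt1 and Mt2 encode small cysteine-rich proteins that bind zinc and copper and scavenge oxidants. They are induced mainly by zinc through MTF1, which binds metal response elements, and also by glucocorticoids. In the lung these genes are commonly read as a record of recent oxidant or metal exposure.

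The probes carried the main results, and those of Slc7a11 are shown first because they gave different answers. The 30 bases at the 5′ end of each 60-base Slc7a11 probe are printed as the files list them, with positions of the whole probe in mm7 on the minus strand of chromosome 3. No exon annotation of that build was used, so exon, intron and UTR are not assigned.
A_52_P368057, chr3:50490342-50490401: agtaatgtatcaggagctttatgtaaatgt
A_52_P663446, chr3:50490980-50491039: tgcaaccaaaattttaactaggttcttctt
A_51_P129502, chr3:50496689-50496748: cctctagcgtattcaaattaatttttgagc
A_52_P298824, chr3:50567425-50567484: aagggttatttctgtggagtaaatgaatgg
The first, A_52_P368057, was the brightest and gave the value of the gene. The next lay 578 bases from it, and the files tie the last, 77023 bases away from the first, to the cDNA AK089283 instead of the transcript NM_011990.

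The metallothionein genes are neighbours, with their probes 6580 bases apart on chromosome 8, and their levels moved together over the dams (below). The 250 bases before each annotated start are given from RefSeq in GRCm38.p6, both on the plus strand, with matches to the core of the metal response element (TGCACNC or TGCGCNC) and of the antioxidant response element (TGACNNNGC), on either strand, in capitals.
Mt1, chr8:94178839-94179088: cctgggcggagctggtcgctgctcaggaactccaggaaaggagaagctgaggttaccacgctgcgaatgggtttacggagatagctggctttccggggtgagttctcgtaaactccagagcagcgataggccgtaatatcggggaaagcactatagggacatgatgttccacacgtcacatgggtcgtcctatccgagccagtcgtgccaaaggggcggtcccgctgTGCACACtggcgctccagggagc
Mt2, chr8:94172368-94172617: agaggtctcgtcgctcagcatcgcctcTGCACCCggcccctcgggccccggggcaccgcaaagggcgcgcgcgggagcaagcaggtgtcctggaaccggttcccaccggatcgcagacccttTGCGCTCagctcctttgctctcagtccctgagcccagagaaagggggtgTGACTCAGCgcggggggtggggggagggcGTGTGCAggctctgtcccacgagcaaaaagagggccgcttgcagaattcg
The Mt2 window held 3 metal response cores and 1 antioxidant response core, TGACTCAGC, and none of them overlapped. The Mt1 window held 1 metal response core. Bases outside the windows, those after the annotated starts included, were not searched. The counts therefore do not give all such elements of either gene. Of 32851 such windows in the table, 21.4% held at least 1 metal response core, 5.17% held 2 or more, and 10.2% held an antioxidant response core. The promoter table matched 7 members with 9 windows, Txnrd1 having 3 starts, and Gclc, Hmox1 and Gsr were not matched. An antioxidant response core was found for 3 members (Gclm, Txnrd1 and Mt2) and a metal response core for 4 (Gclm, Srxn1, Mt1 and Mt2). In Gclm the antioxidant response core overlapped a metal response core. These matches are of letters alone and do not show that a factor binds there.

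Across the arrays, 63.3% to 77.8% of the probes had Cy5 signal well above background, and the median Cy5 signal was 161.5 to 246.5 scanner units over a local background of 80 to 83. Arrays correlated with each other at r = 0.948 to 0.988 over the tested genes with a value on all 20 arrays. Probes of lung epithelium, endothelium and macrophages were well above background on all 20 arrays for every marker looked up. The arrays lay on 6 slides. Slides 1 to 5 each held a Control, a Low and a High dam, slides 1 to 3 also a Medium dam, and slide 6 held 2 Medium dams alone. Control, Low and High dams lay at positions 1, 2 and 4 of every slide that held them, so for these groups dose and position cannot be told apart. The Medium dams lay at position 3 of slides 1 to 3 and at positions 1 and 2 of slide 6. The dyes were never swapped, and a dye effect shared by all arrays cancels in differences between groups. The labels do not say whether dams of a group shared a cage or day. Each dam had its own array, so the spread behind the p-values holds differences between dams and between arrays together. In limma that spread is shared by the 4 groups.

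**Figure D1:**
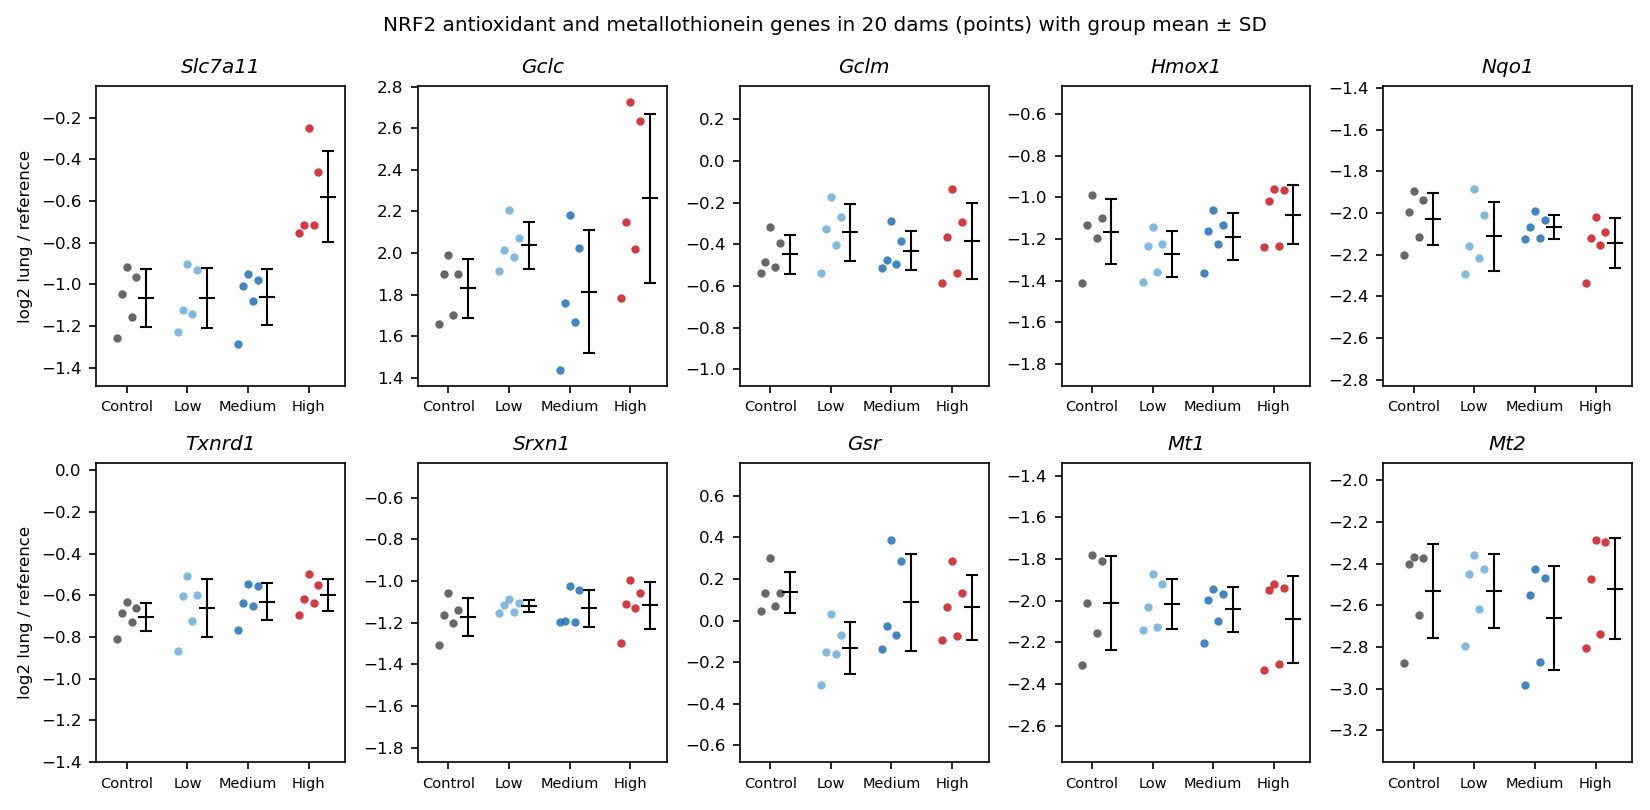
Log2 ratio of lung over reference (vertical axis) for each of the 10 genes in the 20 dams, 1 point a dam, by dose group (horizontal axis), with the group mean ± SD in black; every panel spans the same range of log2 units. The 5 High dams sit above all Control dams for Slc7a11 (lowest High -0.75, highest Control -0.92), and in no other panel does the High group clear the Control group.

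Slc7a11 encodes xCT, the transporter that brings cystine into the cell in exchange for glutamate and so feeds glutathione synthesis. It rose in the High dams against Control. In the order of their animal numbers, here and below, M of the Control dams was -0.96, -1.05, -1.26, -1.16 and -0.92, a mean of -1.07 ± 0.14 (SD, n = 5). In the Low dams M was -0.93, -1.23, -1.14, -1.12 and -0.90, and in the Medium dams it was -0.98, -1.29, -1.08, -0.95 and -1.01. In the High dams it was -0.71, -0.25, -0.46, -0.75 and -0.72, a mean of -0.58 ± 0.22 (SD, n = 5). All 5 High dams lay above all 15 other dams, with High 62 and High 63 the highest. High minus Control was 0.49 ± 0.10 (SE), a 1.40-fold higher ratio, with an adjusted p of 0.0358 by limma over all 19914 genes. The exact permutation test on the 10 dams gave p = 0.00794 (two-sided), the smallest that 252 groupings allow. The Low and Medium differences from Control were fitted at 0.00 ± 0.10 and 0.01 ± 0.10 (SE), but the lung signal was well above background in only 1 Low and 0 Medium dams, so these values cannot show that the lower doses equalled Control. In a whole lung, more cells of a type that makes a transcript and more transcript per cell cannot be told apart, here and in all results below.

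The Slc7a11 signal was close to the detection limit. Its Cy5 signal had a median of 100 scanner units, not far above the local background, and was well above background in 4 Control, 1 Low, 0 Medium and 4 High dams of 5 each. Since no Medium dam measured it, only a bound can be taken from the Cy5 channel alone. The High mean was 1.28-fold a floor averaged over the Medium arrays (log2 Cy5 of 6.38 against 6.02). On each array the floor was the lowest signal well above background, or this probe's own signal where that was higher. The mean floor, 6.021, was close to the probe's own Medium mean of 6.015, so the bound nearly repeats the difference of the Cy5 means. The High mean includes High 60, which was not well above background, and the bound carries no error. With Cy5 alone, High minus Medium was 0.36 (adjusted p = 0.268 by limma), so a higher level in High than in Medium is not established. An offset of 50 units was added to both channels before the ratio was taken, which shrinks the differences of dim probes.

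The other Slc7a11 probes did not share the size of that difference. A_52_P663446 had a High minus Control difference of 0.10 (adjusted p = 0.585, limma over all probes), A_52_P298824 one of -0.06 (adjusted p = 0.754), and A_51_P129502, below the brightness minimum, one of 0.18. Of these, A_52_P663446 was well above background in 0 Control and 3 High dams and A_52_P298824 in 1 Control and 3 High dams. The mean over the 3 kept probes was 0.18 higher in High than in Control (adjusted p = 0.164).

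The Slc7a11 call ended, with the difference on the same side, in 8 of the 20 fits that left out 1 dam (limma adjusted p 0.0519 to 0.106). These were the fits without Low 28, Control 7, 14, 15 or 18, or High 62, 63 or 65. Leaving out a Low or Medium dam cannot move the difference itself, only its spread. Among the Control and High dams, leaving out Control 4, High 60 or High 64 kept the call, and leaving out any other ended the call. It also ended with the scanner software's own ratio (1.30, adjusted p = 0.162), with the Cy5 channel alone (0.31, adjusted p = 0.381), with a background fit on all spots (0.49, adjusted p = 0.249), without slide 6 (0.49, adjusted p = 0.0552) and with only the 10 arrays compared (0.49, adjusted p = 0.181). The call held with the deposited value table (0.60, limma adjusted p = 0.00321) and with no background correction (0.58, adjusted p = 0.00498). It held as well with scaling between arrays (0.54, adjusted p = 0.00566), median centring (0.49, adjusted p = 0.0453) and slide as a block (0.49, adjusted p = 0.0485). Within the slides the High dam was above the Control dam on 5 of 5, by 0.20 to 0.80.

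**Figure D2:**
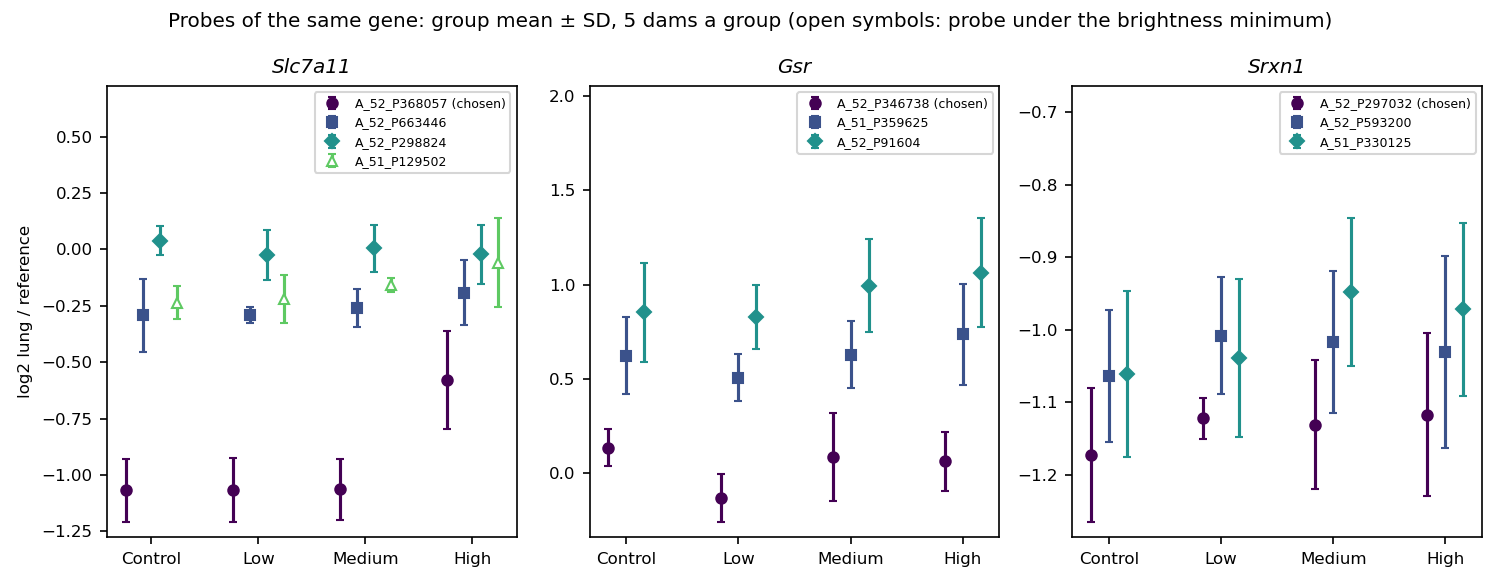
Group mean ± SD of the log2 ratio of lung over reference (vertical axis; 5 dams a group) for every probe of Slc7a11, Gsr and Srxn1, with 1 symbol per probe and the probe used for the gene marked as chosen. The Slc7a11 step at High was seen with the chosen probe (0.49) and not at that size with the others (-0.06 to 0.18), and the Gsr drop at Low was -0.27 with the chosen probe and -0.12 and -0.02 with the others.

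Gclc encodes the catalytic subunit of glutamate-cysteine ligase, which carries out the rate-limiting step of glutathione synthesis. M of the Control dams was 1.99, 1.90, 1.70, 1.66 and 1.90. The High dams had 1.78, 2.73, 2.64, 2.15 and 2.02, so High 62 and High 63 stood highest of all 20 dams and High 60 lay inside the Control range. The Low dams lay between 1.91 and 2.21 and the Medium dams between 1.44 and 2.18. High minus Control was 0.43 ± 0.16 (SE), 95% interval 0.11 to 0.76, with p = 0.0120 before adjustment and 0.248 after it by limma; the exact permutation test gave p = 0.0476 (two-sided), unadjusted. The difference was therefore not called. It was near that of Slc7a11 in size, and its standard error was larger. Without High 62 it was 0.32, and without High 63 it was 0.34. Within slides, High was above Control on 4 of 5, from -0.21 to 0.93. Low minus Control was 0.21 ± 0.16 (SE, adjusted p = 0.831 by limma), with Low above Control on 5 of 5 slides. The exact permutation test gave p = 0.0238 there (two-sided, unadjusted), and the groups overlapped. Medium minus Control was -0.02 ± 0.16.

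Gclm encodes the modifier subunit that lowers the ligase's sensitivity to feedback by glutathione. The Control dams ranged from -0.54 to -0.32 and the High dams from -0.58 to -0.13, so the groups overlapped throughout. Its difference from Control was 0.07 ± 0.08 at High, 0.02 ± 0.08 at Medium and 0.11 ± 0.08 (SE) at Low, none past the threshold. The subunits of the enzyme thus had differences of 0.43 and 0.07 at High, and the difference between them was not tested.

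Gsr encodes glutathione reductase, which returns oxidised glutathione to its reduced form with NADPH. It was the member with the largest difference at the Low dose. M was 0.05, 0.13, 0.30, 0.07 and 0.13 in the Control dams and -0.15, -0.07, 0.03, -0.31 and -0.16 in the Low dams. Every Low dam lay below every Control dam, while the Medium dams (-0.14 to 0.39) and High dams (-0.09 to 0.29) overlapped both groups. Low minus Control was -0.27 ± 0.10 (SE), below Control on 5 of 5 slides, and the exact permutation test gave p = 0.00794 (two-sided, unadjusted). Over all genes limma gave an adjusted p of 0.696, so it was not called. The 2 other Gsr probes, which share 39 bases with each other, gave -0.12 and -0.02 at Low, and 0.11 and 0.21 at High where the chosen probe gave -0.07. The direction of Gsr at High therefore depended on the probe. Neutrophil markers, all 5 of those tested, were also lower in Low than in Control, with a mean M of 2.51 to 3.51 in Low and 3.07 to 4.11 in Control dams, and none passed the threshold. They were not alone, since 0 of 6 T and B cell markers and 1 of 5 macrophage and monocyte markers were higher in Low. All 5 alveolar type 2 markers were higher there. Of the neutrophil markers 0 of 5 were higher at High and 1 of 5 at Medium, where Gsr overlapped Control. The part of any of these cells in the Gsr difference was not tested.

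Txnrd1 encodes cytosolic thioredoxin reductase, which keeps thioredoxin reduced. The Control dams ranged from -0.81 to -0.63 and the High dams from -0.69 to -0.50. Its differences from Control were 0.04 ± 0.06 at Low, 0.07 ± 0.06 at Medium and 0.11 ± 0.06 at High (SE), with adjusted p of 0.932, 0.670 and 0.513 by limma. Srxn1 encodes sulfiredoxin, which repairs overoxidised peroxiredoxins, and was the steadiest member. Its Low dams spread over only -1.15 to -1.09, and its differences from Control were 0.05, 0.04 and 0.06, each ± 0.06 (SE), at Low, Medium and High. The other Srxn1 probes gave 0.03 and 0.09 at High.

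Hmox1 encodes haem oxygenase 1, which breaks down haem, and is a gene often used to report oxidant stress in the lung. The Control dams ranged from -1.41 to -0.99 and the High dams from -1.24 to -0.96. The differences from Control were -0.11 at Low, -0.02 at Medium and 0.08 at High, each ± 0.08 (SE), so the 95% interval at High ran from -0.09 to 0.25. Nqo1 encodes a quinone reductase and is a standard NRF2 target. Its Control dams ranged from -2.20 to -1.90 and its High dams from -2.34 to -2.02, and its differences were -0.08, -0.04 and -0.11, each ± 0.08 (SE), at Low, Medium and High. The High interval of Nqo1, -0.28 to 0.05, leaves room for an increase of at most 0.05 log2 units.

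**Figure D3:**
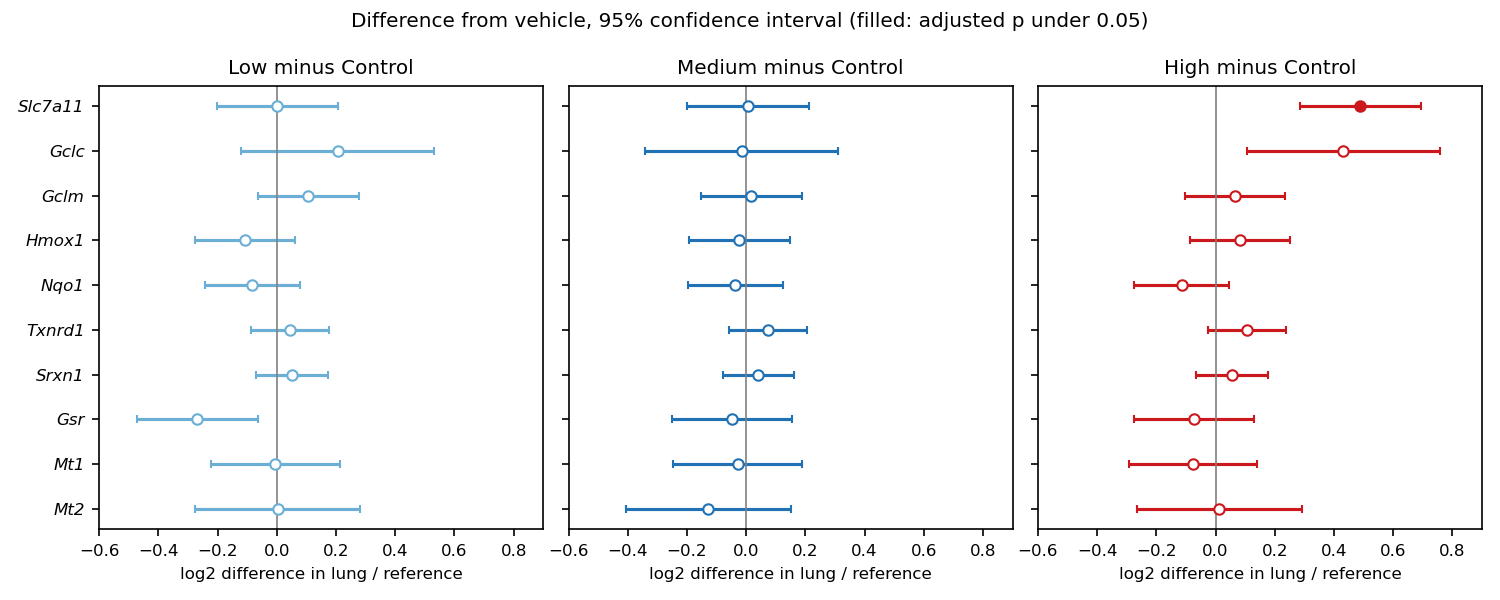
Difference in the log2 ratio of lung over reference from Control (horizontal axis) for each of the 10 genes at the Low, Medium and High dose, with 95% confidence intervals from limma; filled points have an adjusted p under 0.05. Slc7a11 at High is the only filled point, and the Gclc interval at High (0.11 to 0.76) and the Gsr interval at Low (-0.47 to -0.06) are the only others that leave out 0.

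Mt1 and Mt2 encode the metallothioneins found in most tissues. The Control dams had Mt1 values of -1.78, -1.81, -2.31, -2.16 and -2.01, and the High dams had -2.33, -2.30, -1.95, -1.94 and -1.92. For Mt2 the Control dams had -2.37, -2.37, -2.88, -2.65 and -2.40, and the High dams had -2.74, -2.80, -2.29, -2.48 and -2.30. In each group some dams were low for both genes and others high, and no dose group stood apart. High minus Control was -0.08 ± 0.10 for Mt1 and 0.01 ± 0.13 for Mt2, Medium minus Control was -0.03 ± 0.10 and -0.13 ± 0.13, and Low minus Control was 0.00 ± 0.10 for both (SE). The 95% intervals at High were -0.29 to 0.14 for Mt1 and -0.27 to 0.29 for Mt2. A second, dimmer Mt1 probe, which lies 107 bases before the chosen one, gave 0.18 at High and 0.25 at Medium, with the opposite sign, so no direction is given for Mt1. No member probe was saturated in either channel on any array, the bright Mt2 probe included.

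Counted over the members, the High dose gave 1 of 10 called against Control (Slc7a11), beside 61 of 19914 genes, 0.306%. Before adjustment 2 members had p under 0.05, beside 12.9% of all genes, and 1 member had groups that did not overlap, beside 2.54%. The members' median difference was 0.06, with 7 higher and 3 lower, and the median of all genes was 0.00. At the Medium dose 0 members were called by limma, beside 0.00502% of all genes, 0 had p under 0.05 before adjustment (11.7% of all genes), and for none did the groups part (2.76%). At the Low dose 0 were called by limma, beside 0% of all genes. Before adjustment 1, Gsr, had p under 0.05 (6.67%, or 1329 of all genes), and the same gene was the 1 whose groups did not overlap (1.33%). With 10 members each share is coarse. The members were chosen with earlier results of these data known, so the shares do not test the members as a set.

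High was also compared with Medium directly. For Slc7a11, which no Medium dam measured, the fitted difference of 0.48 ± 0.10 (SE, adjusted p = 0.0701 by limma) rests on Medium values at the background. The bound of 1.28-fold from the Cy5 means of that probe carries no error. The other kept probes, A_52_P663446 and A_52_P298824, gave 0.07 and -0.03. Gclc had a difference of 0.45 ± 0.16 (SE; adjusted p = 0.361). Thus 0 members were called, beside 0.0954% of all genes, 2 had p under 0.05 before adjustment (9.69%), and 1, Slc7a11, had groups that did not overlap (1.08%). A linear trend over the 4 dose steps was called for 1 member, Slc7a11, beside 0.281% of all genes, at 0.15 ± 0.03 (SE) per step and an adjusted p of 0.0498. Gclc had 0.11 ± 0.05 per step (adjusted p = 0.362), and these were the 2 members with p under 0.05 before adjustment, beside 12.9%. The 4 comparisons share the same High or Control dams and the trend uses all of them, so they are not separate evidence. The trend call for Slc7a11 ended with slide as a block (0.14 per step, adjusted p = 0.0745) and in 17 of the 20 fits that left out 1 dam. Its shape between Control and High cannot be read, since the Low and Medium values lay mostly at the background.

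Dams of a group differed among themselves most in Gclc and Mt2. The SD within groups was 0.27 for Gclc and 0.23 for Mt2, above 92.4% and 88.1% of all genes, against 0.09 for Srxn1 and a median of 0.12 over all genes. Mt1 (0.17) was measured by 10 spots on each array, and those spots agreed to an SD of 0.02 (median over arrays; 0.01 to 0.04), so the spread between dams was several times that between spots.

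Mt1 and Mt2 rose and fell together from dam to dam. Their Pearson r was 0.81 over the 20 dams (p = 3e-05 by permutation, Spearman rho 0.74, p = 0.00029), and 0.79 without the 2 dams farthest from the median of Mt1. It was 0.86 with each group's mean removed and 0.85 with each slide's mean removed. Gclc and Srxn1 had r = 0.70 (p = 0.00068 by permutation, Spearman rho 0.76, p = 0.00018), 0.62 without the 2 dams farthest from the median of Gclc, High 62 and High 63, 0.77 with group means removed and 0.63 with slide means removed. These were the 2 of 45 member pairs with an adjusted p under 0.05, 0.00135 and 0.0153 over the 45 pairs, and the median r of all pairs was 0.28. The relation of Slc7a11 with Gclc (r = 0.59, p = 0.00685 by permutation, adjusted p = 0.0771, Spearman rho 0.28) rested on High 62 and High 63, since r was -0.02 without them. Values of a dam share an array and its normalisation, so part of any such relation can come from the array, which was not tested beyond the slide.

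**Figure D4:**
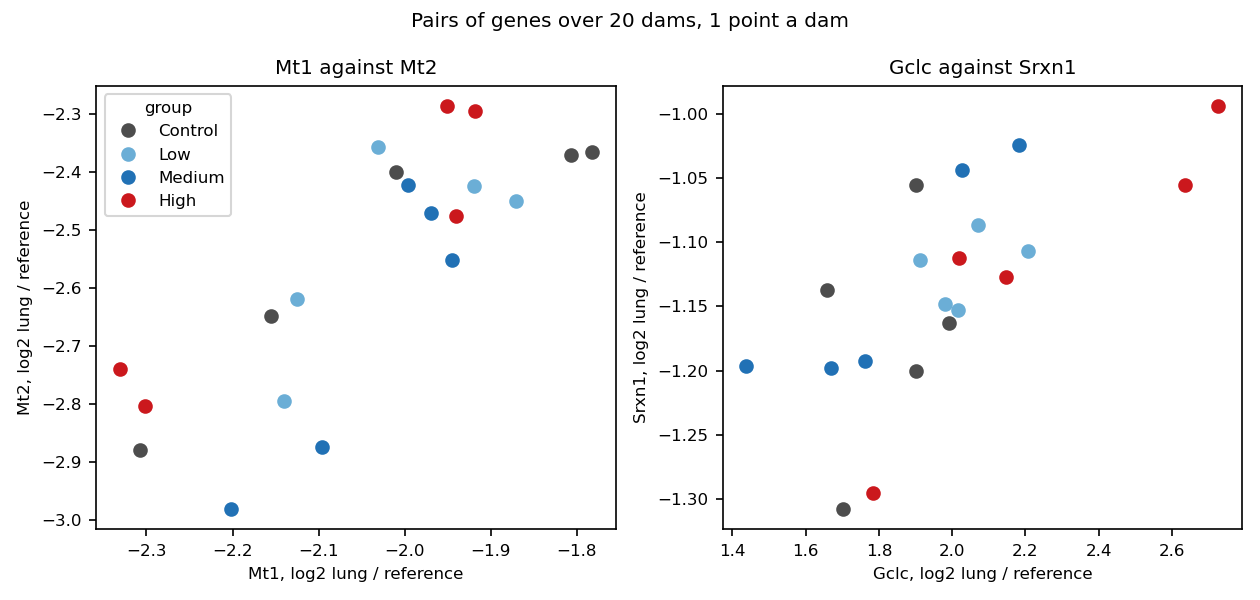
Log2 ratio of lung over reference of Mt2 against Mt1 and of Srxn1 against Gclc, 1 point per dam, coloured by dose group. Mt1 and Mt2 lie along a line (r = 0.81) with every group spread over it, and in the Gclc panel High 62 and High 63 lie farthest to the right.

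The genes whose pattern over the 20 arrays was most like that of Slc7a11, among 15619 tested genes with a symbol, were Cxcl3 (r = 0.90), Cxcl5 (0.89), Noxo1 (0.86), Zfp239 (0.84) and Mmp12 (0.83). Cxcl3 and Cxcl5 encode chemokines that attract neutrophils, and Mmp12 encodes the macrophage elastase. With group means removed these correlations were 0.72, 0.61, 0.53, 0.75 and 0.56. For Gclc they were Cd14 (0.85), Rexo2 (0.85), Atp11a (0.83), Pigr (0.83) and Ccl2 (0.82), where Cd14 is the co-receptor for bacterial lipopolysaccharide and Pigr carries immunoglobulin A across epithelium. For Txnrd1 they were Odc1 (0.76), Kcnip4, Gpatch4, Rabl3 and Mrpl11 (0.71), with lower values than for the other genes named. The list for Mt1 was Gsta4 (0.84), Galk1, Mt2, Gas8 and Dydc1 (0.80), and that for Mt2 was Rptoros (0.86), Slc25a13, Rasl2-9, Trim28 and Thbs2 (0.83). The correlations are descriptions of the best matches among many genes and carry no test. For Slc7a11 they rest largely on values near the background, since its signal was well above background in 4 Control, 1 Low, 0 Medium and 4 High dams. None was refitted without High 62 and High 63, the highest dams for Slc7a11.

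The rest of the pathway was counted at High beside the 0.306% of all genes called there, a share so low that lists of this size would be likely to hold no call. Among 10 regulators of NRF2 none passed in either direction, and 8 were higher, with a median difference of 0.03. The lowest p belonged to Keap1, the NRF2 inhibitor (0.17 ± 0.07, adjusted p = 0.272), Maff, a small MAF partner (0.19 ± 0.10), and Sqstm1, which binds KEAP1 (-0.14 ± 0.08). Of 30 other NRF2 targets that were measured, of 31 listed, none passed, 15 were higher and the median was 0.00. Akr1b8, an aldo-keto reductase, had 0.20 ± 0.06 (adjusted p = 0.171), Txn1, thioredoxin, had 0.18 ± 0.08, and Gstm2, a glutathione transferase, had -0.18 ± 0.07. Of 22 other glutathione, thioredoxin and peroxide enzymes none passed, 9 were higher and the median was -0.01. Sod2, the mitochondrial superoxide dismutase, had 0.30 ± 0.09 (adjusted p = 0.186), Prdx3, a mitochondrial peroxiredoxin, had 0.11 ± 0.05, and Sod3, the extracellular superoxide dismutase, had -0.26 ± 0.13.

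Lists for other routes to these genes were read against the same 0.306%. Of 10 genes of metal handling none passed at High and 6 were higher. Slc39a14, which imports zinc, had 0.22 ± 0.07 (adjusted p = 0.161), Mt3 had 0.09 ± 0.04 and Slc39a10 had -0.13 ± 0.09. Of 13 genes of the ATF4 response to amino acid stress, which can also induce Slc7a11, none passed, with 8 higher and a median of 0.01. Asns, asparagine synthetase, had 0.14 ± 0.08, Ddit3 had -0.06 ± 0.07 and Nupr1 had 0.12 ± 0.17. Of 8 measured genes induced by glucocorticoids, of 9 listed, none passed and 2 were higher. The clock gene Per1 had -0.61 ± 0.46, Pdk4 had -0.31 ± 0.33 and Cdkn1a had 0.14 ± 0.14. At the Medium and Low doses 1 and 0 of all 19914 genes were called by limma, so the counts of these 6 lists, all 0, say nothing about the lists.

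Cell markers were set beside the Slc7a11 and Gclc values. Of 5 macrophage and monocyte markers 4 were higher in High than in Control and none passed the threshold, with a mean M of 2.01 to 2.31 in High and 1.87 to 2.46 in Control dams. Of 6 alveolar macrophage markers 4 were higher, and Siglecf fell by 0.80 on the log2 scale (SE 0.16, adjusted p = 0.0339). The mean M of that list was 3.57 to 3.96 in High and 3.69 to 4.40 in Control dams. Of 5 neutrophil markers none was higher in High. No marker in these lists was below background on all arrays. Markers of fat and of heart muscle varied widely, fat from 0.23 to 4.97 among the High dams and from 1.21 to 3.58 among the Control dams, and heart muscle from 2.21 to 3.55 and from 1.15 to 3.40. All 3 mesothelial markers were higher in High than in Control, with the largest difference for Wt1 (0.64 ± 0.24, SE; adjusted p = 0.270), and none passed. Their mean M was -0.75 to 0.53 in High, -0.01 to 0.46 in Medium, -0.18 to 0.44 in Low and -0.83 to -0.10 in Control dams. All 5 alveolar type 2 markers were also higher in High, and none passed, with a mean M of 3.20 to 3.71 in High and 3.14 to 3.88 in Control dams. The part of these tissues in the values above was not tested.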

How the data were processed

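Per the labels, lung RNA with integrity numbers of 7.0 to 9 was amplified by T7 transcription and labelled with Cy5, and a universal reference with Cy3. The authors deposited a spot table per array, holding the intensity of each spot in both dyes and a dye ratio that is log10 per the file headers. They also deposited a value table of log2 ratios, and the sources used here do not give its normalisation. Per the file headers the scans were read by Feature Extraction 9.5.1.1 for 18 arrays and by 10.1.1.1 for the 2 of slide 6, where the labels give another version.

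Median signals were background-corrected with normexp (offset 50), after 1 spot of Low 27 lying more than 50 units under its background was set missing, and normalised by loess within arrays (limma 3.58.1, R 4.3.3). Outlier and control spots were left out and spots of a probe averaged. Probes needed Cy5 well above background on 3 of 5 arrays of a group, and genes a value on 16 arrays. The brightest kept probe stood for a gene. A single limma fit of the group means over all 20 arrays, with no term for slide, gave the 5 contrasts. They were tested two-sided with Benjamini-Hochberg adjustment over all genes and called under 0.05. The fit was tested on simulated data. Exact permutation tests used 252 groupings, and correlations 100000 permutations. Probes were renamed through the GRCm38.p6 gene table, by accession for 22951 of 41174. The members and lists were chosen with earlier results of these data known. All members are named in each comparison, and from every other pathway list the 3 genes with the lowest p at High and any gene that passed. Markers are named only if they passed, except Wt1. It did not pass and is named outside this rule as the largest mesothelial difference at High. The number of arrays limits the precision. No replicate number was shared between groups.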

Additional observations from a re-analysis of the deposited data

How the results depend on the processing

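The animal numbers are not shared between groups, so no dams were paired by number. The reported fit had no term for slide, and slide as a block was used only as an alternative setting. With 5 dams a group and Slc7a11 near background, its call was the result most open to processing, and the causes of the changes below were not tested. At High minus Control, 61 genes were called as reported, and 14 with the background fit on all spots, 184 with no background correction, 9 with the scanner software's ratio, 206 with the deposited value table, 19 with Cy5 alone, 40 with median centring, 192 with scaling between arrays, 110 with slide as a block and 1 with only the arrays compared. The members called fell from 1 to 0 with all spots, the software's ratio, Cy5 alone, the mean of a gene's probes, without slide 6, with only the arrays compared, and where a probe had to be well above background on all 5 arrays of a group, which left Slc7a11 untested. Slc7a11 had the opposite sign, -0.0601, with probe A_52_P298824.

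At Medium minus Control, 1 gene was called as reported, 0 with all spots, the software's ratio, Cy5 alone, slide as a block or only the arrays compared, 5 with no background correction and 3 with scaling. At Low minus Control, 0 became 1 with no background correction and with the value table. At High minus Medium, 19 genes became 6 with all spots, 8 with the software's ratio, 5 with slide as a block, and 0 without slide 6 or with only the arrays compared. There 1 member, Slc7a11, was called with no background correction, the software's ratio, the value table, median centring and scaling. For the trend, 56 genes became 15 with all spots, 232 with no background correction and with scaling, 3 with the software's ratio, 270 with the value table, 12 with Cy5 alone, 26 with median centring, 97 with no filter and 32 without slide 6. The trend call of Slc7a11 ended, leaving 0 members, with all spots, the software's ratio, Cy5 alone, median centring, the stricter filter, the mean of probes, slide as a block and without slide 6.

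Leaving out 1 dam at a time gave 7 to 139 genes at High minus Control, 1 to 2 at Medium, 0 at Low, 4 to 114 at High minus Medium and 9 to 130 for the trend, with 0 to 1 members called at High minus Control, High minus Medium and the trend and 0 at Medium and Low. Over 34 settings the Gclc difference at High was 0.28 to 0.55 and never called. The difference of Hmox1, Txnrd1 and Srxn1 at High also stayed above 0 in every refit over the arrays (single slides aside), while Gclm, Nqo1, Gsr, Mt1 and Mt2 each changed sign in 1 or more.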
